A study of Mus musculus with 6 samples.

Results

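The Sox genes listed next were followed in dorsal root ganglia (DRG), the clusters of sensory neuron cell bodies beside the spinal cord, and in spinal cord (SC) of the mouse. The genes were Sox2, Sox4, Sox5, Sox6, Sox8, Sox9, Sox10, Sox11, Sox17 and Sox18, taken with every probe set that the platform annotation assigns to exactly 1 gene. This gave 36 probe sets of 10 genes, among 34943 probe sets of 18192 genes in all. The DRG group held 3 arrays of lumbar ganglia, from spinal levels L1 to L6 with left and right sides pooled, and the SC group held 3 arrays of lumbar cord of the same levels. Each array measured a pool of 4 mice, which were C57BL/6J males at 3 months of age. The labels name no treatment, and the pools of a tissue are described as independent. The labels do not say whether the same mice gave both tissues.

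SOX proteins are transcription factors that bind DNA through an HMG box, a domain related to that of the testis-determining factor SRY, and most act together with a partner factor. They are sorted into groups by the sequence of this box. Sox8, Sox9 and Sox10 form group E, which specifies neural crest and glia, with Sox10 known from Schwann cells, satellite glia and oligodendrocytes and Sox9 from astrocytes. Sox2 belongs to group B1 of neural stem cells and some glia, Sox4 and Sox11 to group C of differentiating neurons, Sox5 and Sox6 to group D, and Sox17 and Sox18 to group F of blood vessels.

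In DRG relative to SC, Sox4 was higher and Sox2, Sox8 and Sox9 were lower, while the brightest probe set of Sox10 had nearly equal means in both tissues. Each gene was read from its brightest probe set, and a call means an adjusted p under 0.05 in limma, with Benjamini-Hochberg adjustment over all 34943 probe sets. By this reading 1 of 10 Sox genes was called higher in DRG, where 32.3% of all genes were, and 3 of 10 were called higher in SC, where 10% of all genes were. The 3 arrays of DRG lay apart from the 3 of SC for 5 of 10 Sox genes, Sox2, Sox4, Sox8, Sox9 and Sox17, against 51.7% of all genes. The median log2 difference, DRG minus SC, was −0.09 over the 10 Sox genes and 0.18 over all genes. The number of arrays limits the precision of every value, and p-values measure the spread between these pools.

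The count of Sox genes called depends on how probe sets are combined. With the mean of all probe sets of a gene in place of the brightest, 3 Sox genes were called higher in DRG, Sox4, Sox11 and Sox17, and 6 higher in SC, Sox2, Sox5, Sox6, Sox8, Sox9 and Sox10. Under the same averaging 27.6% of all genes were called toward DRG and 11.2% toward SC. Over the 36 single probe sets, 6 were called higher in DRG, against 26.9% of all probe sets, and 12 higher in SC, against 11.1%. The remaining 18 were not called. Probe sets of 1 gene share their target, so these are not separate observations of the tissues.

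Array scaling and background bear on these values. Before the deposited array scaling, signals already shared a scale, with means of 246.5 to 246.9 on the 6 arrays once extremes were trimmed. The deposited array factors split by tissue, at 0.8609 to 0.9115 in DRG and 1.127 to 1.147 in SC. Dividing by them brought the array medians to 95.8 to 96.05. Among called genes, the share higher in DRG was 76.3% with the array scaling of the deposited values, 56.1% after quantile normalization and 49.1% with signals before that scaling. The median of all genes was 0.18, 0.04 and −0.10 on the log2 scale in the same order. A difference of about this size therefore has no settled direction, and differences of the called Sox genes are also given relative to these medians. A level for comparison came from 51 probe sets of 39 genes not expected in either tissue, such as those of sperm, milk and digestive enzymes. Its 95th percentile lay between 97.8 and 124 on the 6 arrays. Of these 39 genes, 3 were themselves called higher in DRG while under the level on every array, Fgg (1.32), Lct (1.11) and Csn1s1 (1.58), and calls of Sox probe sets under the level are to be read beside these. Pearson's r between arrays, over probe sets, was 0.969 to 0.973 among DRG arrays and 0.969 to 0.972 among SC arrays, and a DRG array against an SC array gave 0.885 to 0.891. Markers fitted the tissue labels, with 8 of 8 sensory neuron genes called higher in DRG, led by P2rx3 (6.70), Avil (6.59) and Scn11a (6.02), and 13 of 13 astrocyte genes called higher in SC, led by Gfap (−5.98), Slc1a2 (−5.81) and Agt (−5.19). In bulk tissue, fewer cells of a type and less RNA per cell cannot be told apart.

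**Figure D1:**
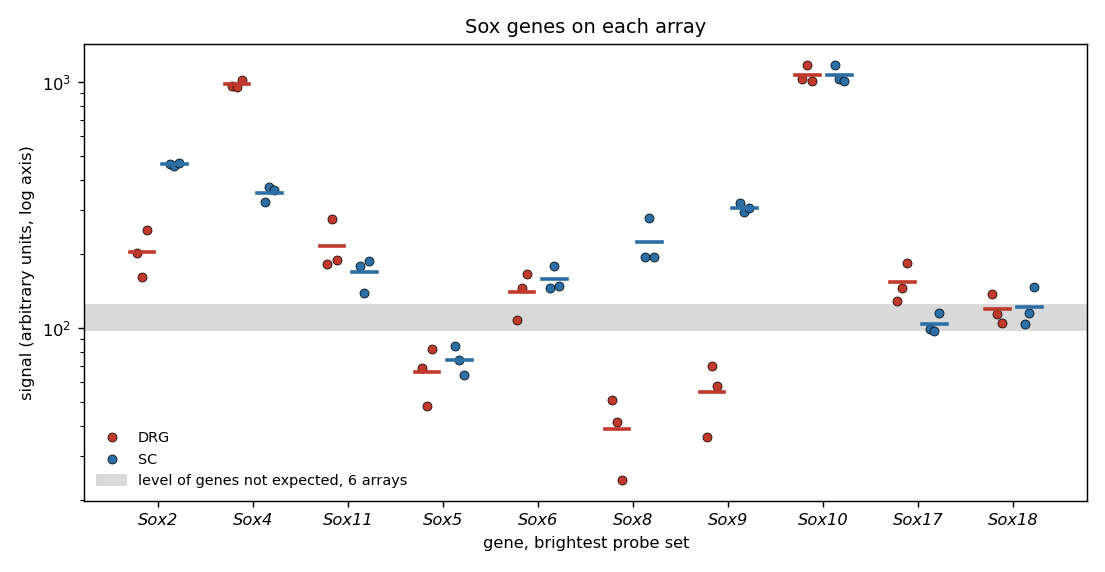
Signal of the brightest probe set of each Sox gene on each array, on a log axis in arbitrary units, with DRG in red left of SC in blue, lines at the means and a grey band over the range of the level of genes not expected. Levels can be compared between tissues within a gene but not between genes. The DRG and SC points lie apart for Sox2, Sox4, Sox8, Sox9 and Sox17 and overlap for the other 5 genes.

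The sequences just upstream of 3 called genes are shown because these genes differ in direction, Sox4 being higher in DRG and Sox2 and Sox8 lower. Each window is the 250 bases before the annotated start in RefSeq (GRCm38.p6), at chr13:28953700-28953949, minus strand for Sox4, chr3:34649745-34649994, plus strand for Sox2 and chr17:25570687-25570936, minus strand for Sox8. Capitals mark a match to ACAAAG or ACAATG, a pair of motifs of the kind that SOX proteins bind, searched on both strands (CTTTGT and CATTGT).
Sox4 upstream window: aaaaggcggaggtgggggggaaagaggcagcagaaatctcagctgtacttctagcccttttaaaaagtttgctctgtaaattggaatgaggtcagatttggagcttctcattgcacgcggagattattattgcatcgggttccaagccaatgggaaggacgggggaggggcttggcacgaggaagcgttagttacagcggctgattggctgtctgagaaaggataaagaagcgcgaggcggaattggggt
Sox2 upstream window: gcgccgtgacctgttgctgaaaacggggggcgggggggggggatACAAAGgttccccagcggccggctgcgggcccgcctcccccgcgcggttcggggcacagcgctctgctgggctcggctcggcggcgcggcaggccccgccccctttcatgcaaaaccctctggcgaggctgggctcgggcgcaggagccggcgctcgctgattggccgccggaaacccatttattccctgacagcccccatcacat
Sox8 upstream window: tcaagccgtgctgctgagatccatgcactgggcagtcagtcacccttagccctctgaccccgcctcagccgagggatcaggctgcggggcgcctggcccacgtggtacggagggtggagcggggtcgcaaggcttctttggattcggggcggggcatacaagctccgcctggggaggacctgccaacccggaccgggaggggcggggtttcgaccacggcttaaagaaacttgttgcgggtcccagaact
The Sox2 window held 1 match, and the windows of Sox4 and Sox8 held none. A match was found in 25.2% of the 32851 windows of the table and in 7 of the 11 windows of 6 Sox genes. Of these 11, 6 belong to Sox6, 5 of them with a match, and the others with a match are 1 window each of Sox2 and Sox5. The GC content was 50.8% for Sox4, 72.0% for Sox2 and 65.6% for Sox8, beside a median of 52.4% over all windows. A match describes the letters only and shows no binding.

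Of group E, Sox9 and Sox8 were lower in DRG, while the result for Sox10 depended on the probe set and the scaling. Sox9, which promotes glial fate and, outside the nervous system, cartilage formation, had signals of 36.1, 69.9 and 58.2 in DRG, against 322.6, 294.9 and 306.1 in SC on probe set 1424950_at. The groups lay far apart, and every DRG array stayed under the level. The log2 difference was −2.23 (95% CI −2.69 to −1.76, limma adjusted p = 2.44e-05), and against the level the signal in SC was at least 2.94-fold higher. A second probe set, 1451538_at, also differed, with signals of 9.36, 52.0 and 19.8 in DRG, against 126, 132.2 and 143 in SC and a log2 difference of −1.92 (limma adjusted p = 0.00179). The third, 1433889_at, had signals of 16.5, 59.8 and 48.8 in DRG, against 43.9, 9.83 and 7.76 in SC, all at or under the level, and was not called at 0.71 (95% CI −0.27 to 1.68, limma adjusted p = 0.249).

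Sox8, which overlaps with Sox10 in oligodendrocyte development, has 1 probe set. Its signals were 50.9, 41.4 and 24.0 in DRG, against 194.9, 279.8 and 193.4 in SC. As for Sox9, the tissues lay apart and the DRG arrays stayed under the level. The log2 difference was −2.14 (95% CI −2.71 to −1.56, limma adjusted p = 0.000125), or at least 2.1-fold higher in SC. Relative to the median of all genes, Sox8 stood at −2.32, −2.25 and −2.33 and Sox9 at −2.41, −2.38 and −2.44 with the deposited scaling, quantile normalization and signals before scaling.

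Sox10, which Schwann cells, satellite glia and oligodendrocytes need to form, was well above the level in both tissues, but its 3 probe sets disagreed. On the brightest, 1451689_a_at, signals were 1023, 1174 and 1008 in DRG, against 1171, 1031 and 1008 in SC. The arrays of the tissues overlapped fully, with means of 1068 ± 91.9 in DRG and 1070 ± 88.5 in SC (SD, n = 3 each). The log2 difference was 0.00 with a 95% CI of −0.20 to 0.20 (limma adjusted p = 0.99). The result depended on the scaling, as the gene was called higher in SC after quantile normalization (−0.52, limma adjusted p = 0.00245) and before the array scaling (−0.37, limma adjusted p = 0.0131). Relative to the median of all genes the values were −0.18, −0.56 and −0.27 in the usual order.

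The second probe set of Sox10, 1424985_a_at, had signals of 577.6, 642.8 and 662.9 in DRG, against 625.8, 481.9 and 539.8 in SC and was not called at 0.19 (95% CI −0.05 to 0.43, limma adjusted p = 0.2). The third, 1425369_a_at, had signals of 243.1, 207.5 and 250.3 in DRG, against 561.3, 496.6 and 526.4 in SC. Here the tissues lay apart, and the log2 difference was −1.13 (95% CI −1.36 to −0.89, limma adjusted p = 2.37e-05), a 2.18-fold higher signal in SC. It was called on the other scalings too, at −1.42 and −1.48. A ratio of 2 probe sets within an array is free of the array factor. The log2 ratio of the third to the first probe set was −2.07, −2.50 and −2.01 in DRG and −1.06, −1.05 and −0.94 in SC, so every DRG array was below every SC array. An exact two-sided permutation test over the arrays gave p = 0.1, the smallest that 3 against 3 arrays allow. The suffix of these names marks probe sets that read more than 1 transcript of the gene, and which transcripts each reads was not tested.

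The ratio of the second to the first probe set also lay apart between the tissues, but the other way, averaging −0.77 ± 0.14 in DRG and −0.97 ± 0.11 in SC (SD, n = 3 each), a shift of 0.20 (exact permutation test, two-sided, p = 0.1). Within an array, Sox4 and Sox2 were set against each Sox10 probe set, a choice made after the values were seen. For Sox4 the log2 ratio was higher on every DRG array for all 3 Sox10 probe sets, with shifts of 1.47, 1.27 and 2.65 against the first, the second and the third. For Sox2 the shifts were −1.20 and −1.40 against the first and second, with no overlap of arrays. Against the third, the Sox2 ratio averaged −0.21 ± 0.19 in DRG and −0.19 ± 0.07 in SC, the arrays overlapped, and the shift was −0.02 (exact permutation test, two-sided, p = 0.9). The ratio of Sox2 to Sox10 therefore had no direction that held for all Sox10 probe sets. No such ratio is given for Sox8 and Sox9, whose DRG signals were under the level.

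**Figure D2:**
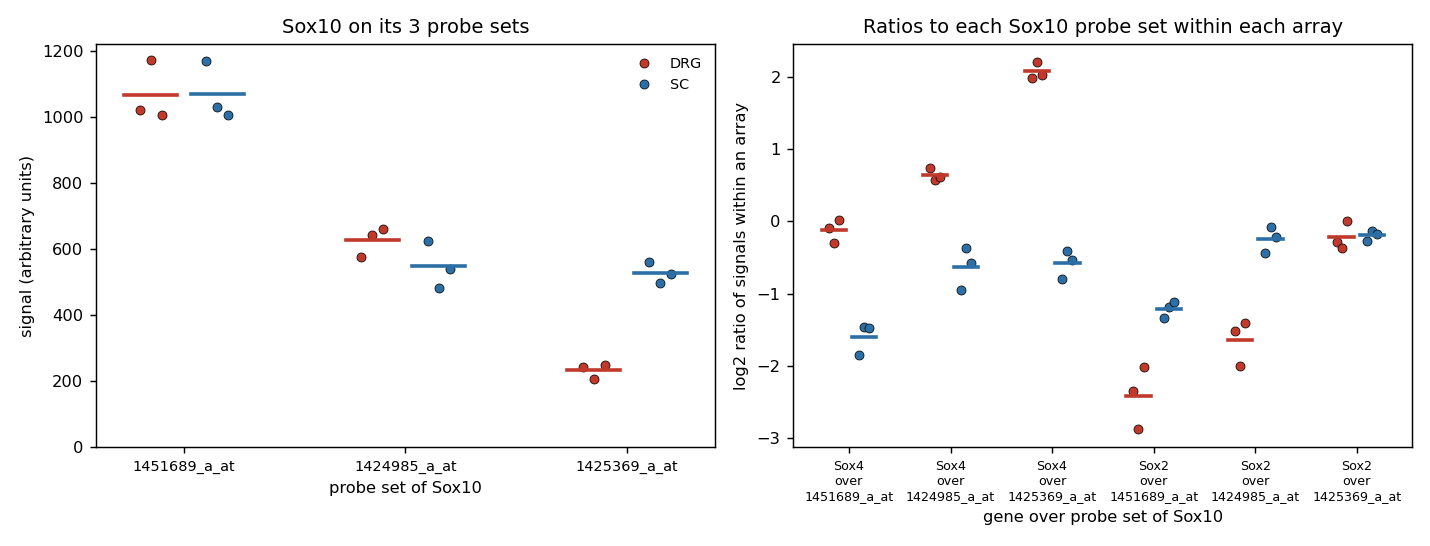
Left, signals of the 3 Sox10 probe sets on each array in arbitrary units, with DRG in red left of SC in blue and lines at the means. Right, log2 ratios of Sox4 and Sox2 to each Sox10 probe set within each array, to be compared between tissues only. The third Sox10 probe set lies apart between tissues, the ratios of Sox4 are higher in DRG against all 3, and that of Sox2 is lower in DRG against the first and second and overlaps against the third, with a shift of −0.02.

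Markers of glia moved beside group E. The summed signal of 13 astrocyte genes was 2884 to 2962 on the DRG arrays and 28318 to 30475 on the SC arrays. Of 12 oligodendrocyte genes, all 12 were called higher in SC, with sums of 3721 to 4016 in DRG and 20368 to 21965 in SC. The largest differences were those of Olig1 (−5.96), Ermn (−5.66) and Olig2 (−5.00). Olig1 and Olig2, defining factors of that lineage, were at or under the level on every DRG array, with 1 DRG value of Olig1 and 2 of Olig2 at the lowest deposited ratio. Of 12 genes of peripheral glia, 11 were called higher in DRG, led by Ngfr (5.73), Cdh1 (4.83) and Scn7a (4.18), and 1, Mal (−1.68), higher in SC, with sums of 30469 to 30882 in DRG and 8893 to 10101 in SC. Of these 11, Foxd3 (1.14) lost the call before the array scaling, and Drp2 (0.28) lost it on both other scalings, at −0.14 with quantile normalization and −0.09 on signals before the array scaling. Whether sensory neurons gave part of the signal of the genes listed for peripheral glia was not tested. The part of these glial cell types in the Sox differences was not tested either.

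Sox2, which maintains neural stem cells and is also found in mature glia, was lower in DRG. Its only probe set had signals of 200.9, 160.6 and 250.4 in DRG, against 464.9, 454.3 and 466.2 in SC. Both tissues passed the level on each array, and no array of one overlapped the other. The log2 difference was −1.14 (95% CI −1.47 to −0.81, limma adjusted p = 0.000196), a 2.2-fold higher signal in SC. Relative to the median of all genes it was −1.32, −1.44 and −1.39 on the 3 scalings.

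Sox4 of group C, which acts in differentiating neurons, was the 1 gene of the 10 called higher in DRG by its brightest probe set. Its brightest probe set, 1433575_at, had signals of 964.6, 956 and 1022 in DRG, against 324.7, 373.6 and 363.9 in SC. The tissues lay apart, and within each the arrays differed little. The log2 difference was 1.43 (95% CI 1.25 to 1.62, limma adjusted p = 1.15e-06), a 2.7-fold higher signal in DRG. Relative to the median of all genes it was 1.25, 1.02 and 1.17 on the 3 scalings.

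Of the other 7 probe sets of Sox4, 2 were called higher in DRG, and these were called on all 3 scalings. On 1449370_at signals were 222, 252.1 and 246 in DRG, against 162.9, 93.3 and 68.3 in SC, a log2 difference of 1.11 (limma adjusted p = 0.00649). On 1419155_a_at they were 155, 78.7 and 222.8 in DRG, against 29.3, 28.0 and 31.1 in SC, a log2 difference of 1.79 (limma adjusted p = 0.00198). The remaining 5 were dim, with 4 at or under the level on every array, and had log2 differences from −1.01 to 1.18 without a call. The lowest of these, 1458332_x_at, ran the other way with a 95% CI of −2.01 to −0.02 (limma adjusted p = 0.105), and before the array scaling it was called higher in SC at −1.29 (limma adjusted p = 0.041). The suffix of that name marks possible cross-hybridization.

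Sox11, the close relative of Sox4, had log2 differences above 0 on each of its 6 probe sets, of which 3 were called. The brightest, 1431225_at, had signals of 182, 277.7 and 187.8 in DRG, against 178.3, 138.4 and 187.6 in SC. These overlapped, and the log2 difference of 0.32 was not called (95% CI −0.11 to 0.75, limma adjusted p = 0.235). The probe set 1429051_s_at had signals of 215.1, 210.5 and 219.7 in DRG, against 123, 137.6 and 100.9 in SC, with no overlap and a log2 difference of 0.77 (limma adjusted p = 0.00299). On 1453002_at they were 154.8, 158.9 and 161.8 in DRG, against 92.9, 84.7 and 105.8 in SC, and on 1436790_a_at 103.5, 66.8 and 63.8 in DRG, against 30.9, 27.2 and 18.1 in SC. Both were called higher in DRG, with log2 differences of 0.66 (limma adjusted p = 0.0101) and 1.17 (limma adjusted p = 0.00625). The other 2 had log2 differences of 0.51 and 0.20 without a call. Before the array scaling the call remained only for 1436790_a_at, and the brightest probe set stood at −0.02. On 1436790_a_at, only 1 DRG array and no SC array passed the level.

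Genes of neurons also differed beside group C. Of 10 genes that neurons of both tissues express, 8 were called higher in DRG, led by Tubb3 (2.35), Elavl4 (1.93) and Uchl1 (1.60), and 1, Map2 (−1.35), in SC, with summed signals of 63494 to 66292 in DRG and 35094 to 38820 in SC. The split was 6 to 2 on either of the other scalings. In a list of 4 genes set beside group C, Tubb3, a neuronal tubulin described as a target of Sox4 and Sox11, differed by 2.35 on the log2 scale. Stmn2, a regulator of microtubules, differed by 1.33. Dcx and Tead2 were not called, at 0.09 and 0.40, and Tead2 was under the level on every array. The part of neuron content in the Sox4 and Sox11 values was not tested.

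**Figure D3:**
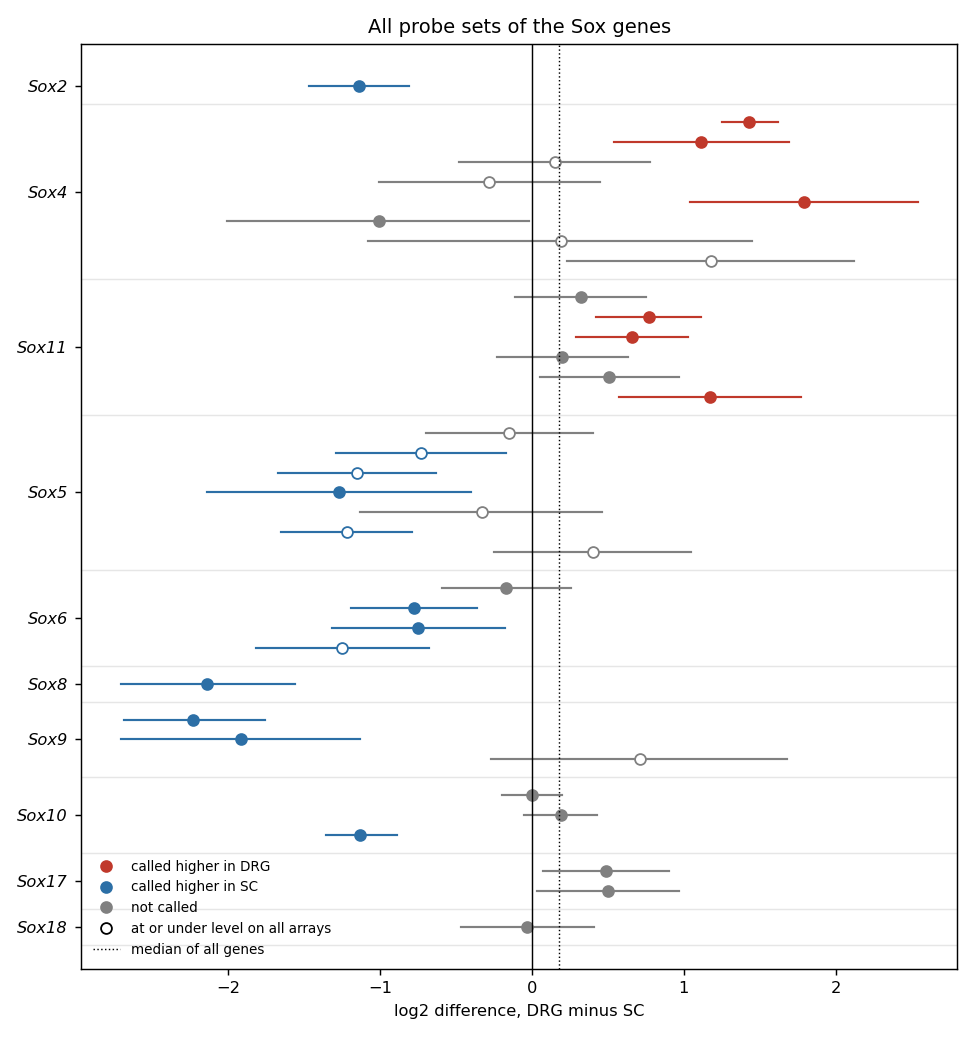
Log2 difference DRG minus SC of each of the 36 Sox probe sets with its 95% confidence interval, the brightest probe set of a gene on top. Red marks calls higher in DRG, blue calls higher in SC and grey no call, open circles mark probe sets at or under the level of genes not expected on every array, and the dotted line is the median of all genes at 0.18. On the deposited scaling plotted here the calls of each gene lie on 1 side, with Sox4 and Sox11 to the right, although the brightest Sox11 probe set turns to −0.02 before the array scaling, and Sox2, Sox5, Sox6, Sox8, Sox9 and Sox10 to the left.

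Group D genes, whose proteins have no activation domain of their own and work beside Sox9 in cartilage, were called on dimmer probe sets only. For Sox6, the brightest probe set, 1434918_at, had signals of 107.2, 145.5 and 166.2 in DRG, against 145.1, 179 and 147.8 in SC. The tissues overlapped, and the log2 difference was −0.17 (95% CI −0.59 to 0.26, limma adjusted p = 0.546). The other 3 probe sets were called higher in SC on all 3 scalings. On 1427677_a_at signals were 83.4, 68.5 and 67.8 in DRG, against 127.4, 140.5 and 141.7 in SC, a log2 difference of −0.78 (limma adjusted p = 0.00787) and at least 1.31-fold higher in SC. On 1447655_x_at, whose suffix marks possible cross-hybridization, the log2 difference was −0.75 (limma adjusted p = 0.043). On 1426018_a_at, under the level on every array, it was −1.25 (limma adjusted p = 0.00332).

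Sox5 was dim throughout. Its brightest probe set, 1452511_at, had signals of 68.7, 48.2 and 81.8 in DRG, against 84.2, 74.0 and 64.4 in SC, all under the level, and a log2 difference of −0.15 (95% CI −0.70 to 0.40, limma adjusted p = 0.691). Of its 7 probe sets, 4 were called higher in SC, and only 1 of the 7 passed the level, on 1 SC array. The called ones differed by −0.73 to −1.27. The clearest by p was 1440827_x_at, whose suffix marks possible cross-hybridization. It had signals of 1.04, 2.30 and 2.79 in DRG, against 25.1, 22.2 and 30.9 in SC (limma adjusted p = 0.000694). No fold is given for these, since the signals were at or under the level apart from that 1 array.

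Group F genes, factors of endothelial cells, did not pass the test. Sox17, which acts in arterial endothelium, had signals of 129, 145.7 and 184 in DRG, against 98.9, 96.8 and 115.2 in SC on 1429177_x_at. The suffix of this probe set, too, marks possible cross-hybridization. The DRG arrays were all higher, and the SC arrays were all under the level. The log2 difference was 0.49 (95% CI 0.07 to 0.90, limma adjusted p = 0.0653). On the second probe set, 1421657_a_at, signals were 94.6, 111.3 and 116.2 in DRG, against 74.0, 58.5 and 81.8 in SC, with a log2 difference of 0.50 (95% CI 0.03 to 0.97, limma adjusted p = 0.0892). As a gene, Sox17 was called under 5 of 16 alternative settings, and the averaging of its probe sets was among these 5. Over the 16 settings the limma adjusted p ran from 0.0291 to 0.541. It was highest before the array scaling, where the brightest probe set had a log2 difference of 0.16.

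Sox18, a factor of vessel and lymphatic development, had signals of 137.8, 114 and 104.7 in DRG, against 103.4, 115.1 and 147.1 in SC. They overlapped and lay near the level, and the log2 difference was −0.03 (95% CI −0.47 to 0.41, limma adjusted p = 0.936). Of 15 endothelial genes, 5 were called higher in DRG, led by Vwf (0.73), Cdh5 (0.68) and Esam (0.67), and 3 in SC, Flt1 (−1.26), Cldn5 (−0.59) and Slco1a4 (−0.59), with summed signals of 3143 to 3448 in DRG and 3172 to 3508 in SC. Quantile normalization changed the split to 2 and 3, and signals before the array scaling gave 0 and 4. Of 8 genes described as targets of group F factors, Cdh5 (0.68) and Egfl7 (0.42) were called toward DRG and 3 toward SC, Prox1 (−1.23), Vcam1 (−0.99) and Cldn5 (−0.59). Both DRG calls were lost before the array scaling, and that of Egfl7 also after quantile normalization. Cdh5 is the cadherin of endothelial junctions, and Cldn5 a claudin of the blood-brain barrier.

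Of 9 further Sox genes measured, 2 were called higher in DRG and 1 higher in SC. Sox12, the third member of group C, had signals of 390.4, 330.5 and 332.7 in DRG, against 161.5, 196.2 and 189.7 in SC. The tissues lay apart, with a log2 difference of 0.89 (limma adjusted p = 0.000331), called on all 3 scalings. Sox14 was called at 1.03 (limma adjusted p = 0.0191) and Sox1, a relative of Sox2, at −2.46 (limma adjusted p = 2.14e-05), but neither was above the level in any array. The call of Sox14 was lost before the array scaling (limma adjusted p = 0.0601). The median log2 difference of the 9 was 0.18, as over all genes.

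Described targets of group E factors outside cartilage split between the tissues. Of 16 measured, 6 were called toward DRG and 7 toward SC, and the median of their log2 differences was −0.20. Higher in DRG were the receptor gene Ret (3.25), the peripheral myelin gene Pmp22 (1.75) and Dhh (1.66), a signal that Schwann cells send to the nerve sheath. Higher in SC were the gap junction gene Gjb1 (−4.27), Myrf (−3.59), a regulator of central myelin, and Mag (−3.57), a myelin glycoprotein. Gjb1 had signals of 15.4, 17.6 and 27.9 in DRG, against 609.2, 672.8 and 747.5 in SC, at least 6.45-fold higher in SC. Ret had 4150, 4305 and 4565 in DRG, against 453.5, 446.3 and 428 in SC and is also expressed by sensory neurons. S100b, called higher in DRG at 0.32, was called higher in SC after quantile normalization at −0.23, and the split of the list was then 5 to 9.

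**Figure D4:**
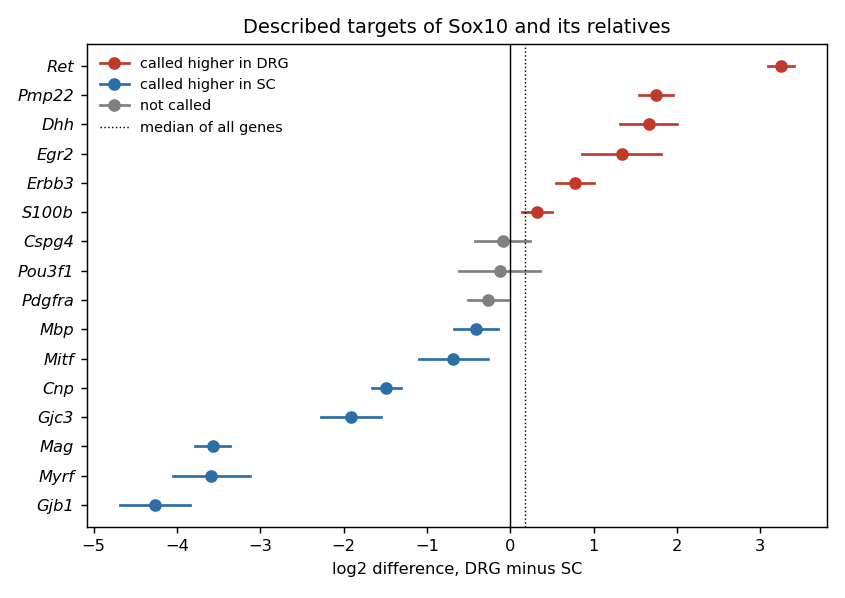
Log2 difference DRG minus SC, with 95% confidence interval, of 16 genes described as targets of Sox10 and its relatives, ordered from higher in DRG at the top to higher in SC at the bottom. The dotted line is the median of all genes at 0.18. The calls run from 3.25 for Ret to −4.27 for Gjb1, and S100b, at 0.32, turns to −0.23 after quantile normalization.

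Partner factors and cartilage targets completed the lists. Of 11 partners measured, Egr2, the zinc finger factor of myelinating Schwann cells, was called higher in DRG (1.34) together with Mef2c (0.56), while Pou3f3 (−3.86), Nfix (−2.32) and Ctbp2 (−0.49) were called higher in SC. Egr2 had signals of 223.3, 143.5 and 157.2 in DRG, against 63.3, 56.5 and 55.5 in SC, at least 1.57-fold higher in DRG. Pou3f3, a POU domain factor, had 8.21, 72.0 and 36.1 in DRG, against 657.7, 765.8 and 624.5 in SC, at least 6.51-fold higher in SC. Mef2c was not called before the array scaling. Quantile normalization added Nfia (−0.39) and Nfib (−0.45) to the calls toward SC, making 5, and signals before the array scaling added Nfib (−0.44), making 4. Of 10 cartilage targets of Sox9, Comp was called higher in DRG (1.13) and Col11a2 (−1.58), Acan (−1.37) and Col9a3 (−1.34) higher in SC. Col9a3 was under the level on every array. Signals before the array scaling added Matn1 (−0.95, limma adjusted p = 0.0365) toward SC, a gene under the level on every array. Acan encodes aggrecan, which also surrounds central neurons. Col2a1, the main cartilage collagen, was under the level on every array.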

How the data were processed

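Gene expression was measured in 3 DRG and 3 SC pools on 3' expression arrays. The authors deposited linear ratios computed from signals of MAS5, whose version is not stated, per the submitters' processing notes. How ratios were formed is not given in the sources used here. In the values, 91.8% of probe sets had a median ratio of 1, and in the other 8.21% values followed a regular grid, 100% of them deviating from a whole step by less than 0.001 steps. The deposited ratio was therefore taken as signal over an array factor and over the probe set's median. Since MAS5 writes signals in steps of 0.1, the smallest multiplier that put all 6 values of a probe set on whole steps gave its signal, for 45080 of 45101 probe sets. The recovery and the fit were checked with a self-test. Simulated signals were recovered exactly for 98.4% of probe sets and up to a common factor for 1.59%. The fit called 35% of 100 probe sets with a simulated log2 difference of 1, and 81% of 100 with one of 2. False calls were 2.52% of all calls. A probe set without a call can therefore still differ. Few probe sets were changed in the simulation, unlike in these data, so the shares may differ here. No Sox value stood at the lowest deposited ratio of 0.01.

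Signals keep the deposited array scaling, with array factors of geometric mean 1. Gene names of probe sets came from the platform annotation, matched by Entrez identifier to RefSeq (GRCm38.p6), which changed no symbol. The tissues were compared as DRG minus SC in limma 3.58.1 (R 4.3.3) with log2(signal + 16) as response (lmFit and eBayes with an intensity trend, two-sided, Benjamini-Hochberg over 34943 probe sets). The pseudocount makes differences of dim genes smaller. Where all 3 arrays of the dimmer tissue were under the level of genes not expected, a fold is a lower bound. That level is the 95th percentile of the list on each array, and the dim signal itself is used where higher.

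All 10 Sox genes are named. Of each other list, up to 3 called genes with the largest difference in each direction are named, or the brightest member of a list without a call. Some genes that lose or gain a call or turn sign on another scaling, genes of the list not expected, and some further list members were named after their values were seen. The members and lists were chosen with earlier results of these data known. Genes missing from a list were not analysed here. Deviations from the tissue means correlated at −0.00746, −0.0309 and 0.0087 between same-numbered arrays of the tissues. Differently numbered arrays gave −0.0255 to 0.0344. Values this near 0 cannot show whether the same mice gave both tissues. Other scripts ran in Python 3.11.15 with numba 0.67.0, and pandas was at 2.3.3, numpy at 2.4.6, matplotlib at 3.10.9.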

Additional observations from a re-analysis of the deposited data

How the results depend on the processing

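Sox2, Sox4, Sox8 and Sox9 kept direction and call under each alternative that could give a value, 17 for Sox2, Sox4 and Sox9 and 16 for Sox8. Their log2 differences ranged from −1.49 to −0.99 for Sox2, 0.57 to 1.47 for Sox4, −2.57 to −1.48 for Sox8 and −2.54 to −1.15 for Sox9. The filter on low signals and the removal of probe sets that can match several transcripts left no value for some of the other genes, and the filter left none for Sox8.

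Against 1 Sox gene called higher in DRG, there were 2 with the logarithm of the deposited ratio, without an intensity trend in eBayes and above the median signal, and 3 when the probe sets of each gene were averaged. Leaving out 1 array gave 1 to 2, the second being Sox17 without DRG replicate 1. Against 3 called higher in SC, averaging the probe sets of each gene gave 6, where 27.6% and 11.2% of all genes were called toward DRG and SC. Quantile normalization and signals before the array scaling each gave 4, Sox10 being added. On these scalings 3002 and 3692 of all 18192 genes were called toward SC. Above the median signal there were 2, as that filter left no value for Sox8. Against 6 Sox probe sets higher in DRG, there were 10 with the logarithm of the deposited ratio and 1 with 1 probe set per gene tested. Against 12 higher in SC, there were 3 with 1 probe set per gene tested and 3 above the median signal, where fewer probe sets were tested. Over all probe sets, 9417 and 3872 calls toward DRG and SC became 5956 and 1863 with 1 probe set per gene, and 5594 and 7664 before the array scaling. The sign of values near 0 turned for Sox11 before the array scaling (−0.02), and with 1 array left out for Sox5 (−0.29 to 0.02), Sox10 (−0.07 to 0.06) and Sox18 (−0.13 to 0.10). The cause of these changes was not tested beyond the smaller number of probe sets.

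With the replicate number as a block, 1 Sox gene was called toward DRG and 3 toward SC, with 7 and 10 Sox probe sets, and no call of a Sox gene changed. With the highest probe set of the genes not expected as the level, which was added after seeing the data, 6 Sox genes passed it on at least 1 DRG array and 7 on at least 1 SC array, against 7 and 8. On all DRG arrays 3 passed it, Sox4, Sox10 and Sox11, against 7. On all SC arrays 5 passed it, Sox2, Sox4, Sox8, Sox9 and Sox10, against 7.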

Other observations

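Other cell types that dissection can include gave these values. Of 8 genes of fibroblasts, 7 were called higher in DRG, with summed signals of 15006 to 16369 in DRG and 2514 to 2842 in SC. The largest differences were those of Dcn (3.45), a proteoglycan, Col3a1 (3.00), a collagen, and Lum (2.83). Of 7 genes of oligodendrocyte precursors, Lhfpl3 (0.27) was called higher in DRG, and Bcas1 (−3.22), Gpr17 (−3.16) and Vcan (−0.77) were called higher in SC. Pdgfra (−0.27), Ptprz1 (−0.13) and Cspg4 (−0.09) were not called. Lhfpl3 turned to −0.17 after quantile normalization, without a call, and on both other scalings the list had 0 calls toward DRG and 5 toward SC, Pdgfra and Ptprz1 being added. Of 6 genes of ependyma, the lining of the central canal, Rarres2 (2.30) was called higher in DRG, and Ccdc153 (−1.08) and Tmem212 (−1.02) were called higher in SC. The calls toward SC were 3 with quantile normalization, which added Foxj1, and 4 on signals before the array scaling, which added Foxj1 and Enkur. Tmem212 and Enkur were under the level on every array.

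Of 9 genes of cartilage and bone, 1 was called in each direction, Comp and Acan. Signals before the array scaling added Matn1 toward SC, making 2. Of 6 muscle genes, limma called 0, and 1, Myh1, had an unadjusted p under 0.05. Before the array scaling Myh1 was called higher in SC at −1.40 (limma adjusted p = 0.0373). The brightest, Acta1, had signals of 126.4, 192.2 and 557.7 in DRG and 163.1, 667 and 874.7 in SC, so that DRG replicate 3 and SC replicates 2 and 3 were high.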
